A study of Mus musculus with 8 samples.

Results

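The 9 myeloid C-type lectin receptor genes described here were chosen by name, with earlier results of these data known. They were followed through a study of the phosphatase gene Ptpn1 and the cytokine IL-10: Clec4e, Clec4d, Clec4n, Clec4a1, Clec4a2, Clec4a3, Clec5a, Clec7a and Clec12a. All 9 had a row among the 11996 genes of the deposited table, and all 9 were among the 11400 genes that passed a filter on low values. RNA was sequenced from macrophages that thioglycolate, an irritant, had drawn into the peritoneal cavity of C57BL/6 mice, after the cells had adhered to plastic for 24 hours. The 4 groups were Ptpn1-/- cells with IL-10 (100 ng/ml for 4 hours), wild-type cells with IL-10, mock-treated Ptpn1-/- cells and mock-treated wild-type cells. Each had 2 samples in the labels, and nothing further is given there on the knockout allele, on the age or sex of the mice, or on whether the cells of several animals were pooled. The table holds 1 signal per gene and group, taken here as an authors' mean, though the column names do not call it one. Differences thus carry neither a spread between samples nor a p-value. Genes are therefore described as listed higher or lower, with log2 ratios that have a pseudocount of 26.7 units of signal.

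C-type lectin receptors are membrane proteins that bind sugars, lipids and other ligands of microbes or of dead cells through a shared fold. The activating ones signal through the kinase SYK, either by a motif in their own tail or by pairing with the adaptors FcRγ (Fcer1g) or DAP12 (Tyrobp), and then through CARD9, BCL10 and MALT1 to NF-kB. The inhibitory ones carry a tail motif that recruits the phosphatases SHP-1 (Ptpn6) and SHP-2 (Ptpn11). Among the 9 genes, Clec4e (Mincle, which binds a mycobacterial glycolipid), its partner Clec4d (MCL) and Clec4n (Dectin-2, which binds fungal mannans) pair with FcRγ. Clec5a (MDL-1) pairs with DAP12, and Clec7a (Dectin-1, the receptor for fungal beta-glucan) has its own activating motif. Clec4a2 (DCIR) and Clec12a (MICL) are inhibitory, and Clec4a1 and Clec4a3 are close relatives of Clec4a2.

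All 9 genes lie on chromosome 6 (mm9, coordinates of the deposited table). Of the 7 rows within the 368 kb from Clec4a1 to Clec4e (122871866 to 123239884), 6 belong to the receptors described here. Along that stretch come Clec4a1 (122871866 to 122884637), Clec4a3 (122902533 to 122919893), Clec4a2 (123087595 to 123094017), Clec4n (123179875 to 123180847) and Clec4d (123212125 to 123225286), all on the plus strand, and then Clec4e (123233712 to 123239884) on the minus strand. Clec12a (129306820 to 129314434, plus strand) and Clec7a (129411611 to 129422790, minus strand) form a second group, and Clec5a (40524893 to 40535802, minus strand) stands alone. No row of these genes overlapped another row of the table. Some rows are shorter than the gene: the Clec4n row spans 973 bases where GENCODE M21 gives the gene 17179 bases on GRCm38, the Clec4a2 row 6423 against 37572, and the Clec12a row 7615 against 22613. The sources used here do not say which part of a gene each value counts.

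The starts of the genes whose signals differed most between the genotypes under mock (Clec4a1, Clec4a3, Clec4a2 and Clec12a) are shown first, followed by Clec7a, the gene with the lowest ratio in all 4 two-group comparisons, and Clec4d, whose start holds a match to 1 of the motifs searched. Each is 250 bases before to 50 after a start site from RefSeq on GRCm38.p6, where 8 of the 9 genes matched by symbol (Clec4n did not). Where RefSeq lists 2 starts, for Clec4a3 and Clec7a, 1 is shown, and capitals mark matches to the motifs named after them.
Clec4a1 (chr6:122921598-122921897, plus strand): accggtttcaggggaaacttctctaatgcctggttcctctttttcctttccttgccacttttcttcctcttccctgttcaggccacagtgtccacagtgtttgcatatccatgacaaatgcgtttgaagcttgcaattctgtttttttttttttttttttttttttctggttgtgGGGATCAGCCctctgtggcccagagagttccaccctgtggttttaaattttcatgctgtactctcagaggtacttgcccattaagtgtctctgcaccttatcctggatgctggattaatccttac
Clec4a3 (chr6:122952265-122952564, plus strand): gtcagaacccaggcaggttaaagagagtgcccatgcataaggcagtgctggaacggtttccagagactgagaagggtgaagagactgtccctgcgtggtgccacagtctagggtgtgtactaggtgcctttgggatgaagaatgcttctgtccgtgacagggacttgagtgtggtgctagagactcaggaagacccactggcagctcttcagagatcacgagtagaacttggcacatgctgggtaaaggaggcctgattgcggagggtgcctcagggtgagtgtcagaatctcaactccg
Clec4a2 (chr6:123122440-123122739, plus strand): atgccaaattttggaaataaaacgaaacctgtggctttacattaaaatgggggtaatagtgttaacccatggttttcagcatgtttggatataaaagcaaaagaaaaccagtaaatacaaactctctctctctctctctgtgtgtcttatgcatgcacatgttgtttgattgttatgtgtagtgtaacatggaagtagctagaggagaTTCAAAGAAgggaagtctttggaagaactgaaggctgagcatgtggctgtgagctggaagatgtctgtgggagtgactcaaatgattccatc
Clec12a (chr6:129349994-129350293, plus strand): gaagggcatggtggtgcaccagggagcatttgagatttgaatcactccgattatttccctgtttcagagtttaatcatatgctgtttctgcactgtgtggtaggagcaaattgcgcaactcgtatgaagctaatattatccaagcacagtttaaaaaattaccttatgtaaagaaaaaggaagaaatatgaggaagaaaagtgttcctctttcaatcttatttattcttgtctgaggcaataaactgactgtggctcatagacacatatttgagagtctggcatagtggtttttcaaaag
Clec7a (chr6:129472730-129473029, minus strand): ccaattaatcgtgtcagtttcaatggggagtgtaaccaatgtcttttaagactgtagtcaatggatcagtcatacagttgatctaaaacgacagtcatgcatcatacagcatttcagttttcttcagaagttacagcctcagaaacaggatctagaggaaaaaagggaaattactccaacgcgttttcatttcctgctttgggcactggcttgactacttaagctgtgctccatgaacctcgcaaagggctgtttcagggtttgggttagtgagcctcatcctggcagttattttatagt
Clec4d (chr6:123261857-123262156, plus strand): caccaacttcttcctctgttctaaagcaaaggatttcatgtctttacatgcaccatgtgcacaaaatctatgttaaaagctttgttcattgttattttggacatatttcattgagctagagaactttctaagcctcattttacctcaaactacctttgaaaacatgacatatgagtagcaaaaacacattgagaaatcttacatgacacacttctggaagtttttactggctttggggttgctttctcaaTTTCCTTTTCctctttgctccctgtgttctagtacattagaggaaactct

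The 3 motifs were searched on both strands in the 10 start windows that RefSeq gives for the 8 genes. TTCNNNGAA, the form bound by STAT factors, matched once, as TTCAAAGAA at positions -42 to -34 of Clec4a2, where 8.3% of all 32851 windows of 300 bases hold a match. The NF-kB motif, here GGGA and CC around 4 bases of any kind, matched once, as GGGATCAGCC at -75 to -66 of Clec4a1, against 20.7% of all windows. The core of interferon-stimulated response elements, here GAAA repeated after 2 bases of any kind, matched once, at 1 to 10 of Clec4d on the other strand, against 3.44% of all windows. The 4 starts of the genes with the largest genotype ratios under mock therefore shared none of the 3 motifs, and Clec12a and Clec7a held no match. A match describes the letters only, and the absence of one says nothing of binding elsewhere. The Clec4a2 and Clec12a rows are shorter than the gene, so the starts shown for them may lie outside the stretch that was counted.

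The signals spanned a wide range of levels. No source used here says whether they were divided by gene length. Over 11222 genes the mean signal had a Spearman's rho of 0.08 with transcript length. Levels between genes are set side by side per kilobase of the longest protein-coding transcript in GENCODE M21. If the signals were already divided by length, that order need not hold for the lower genes. The places of Clec4n, Clec4a2 and Clec12a are also uncertain, since their rows are shorter than the gene. The Clec4n row spans 973 bases, fewer than the 1229 bases of the transcript used. On that scale the order of the mean over the 4 groups was Clec7a at 16194 units per kilobase, Clec4d at 13888, Clec12a at 1830, Clec4a3 at 857, Clec4a1 at 649, Clec4e at 328, Clec4a2 at 288, Clec4n at 159 and Clec5a at 92.9. In signal itself Clec7a averaged 36874.5 units and Clec4d 18374, while Clec4n averaged 195.5 and Clec5a 348. Clec7a and Clec4d are thus the high pair on both scales. Neighbours in this order cannot be set against a spread, since no value per sample was analysed here. Clec7a and Clec4d stood between ranks 55 and 167 of 11996 in every group. Ranks lie far apart in signal there, so that a move of a few ranks shifts the signal widely.

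**Figure D1:**
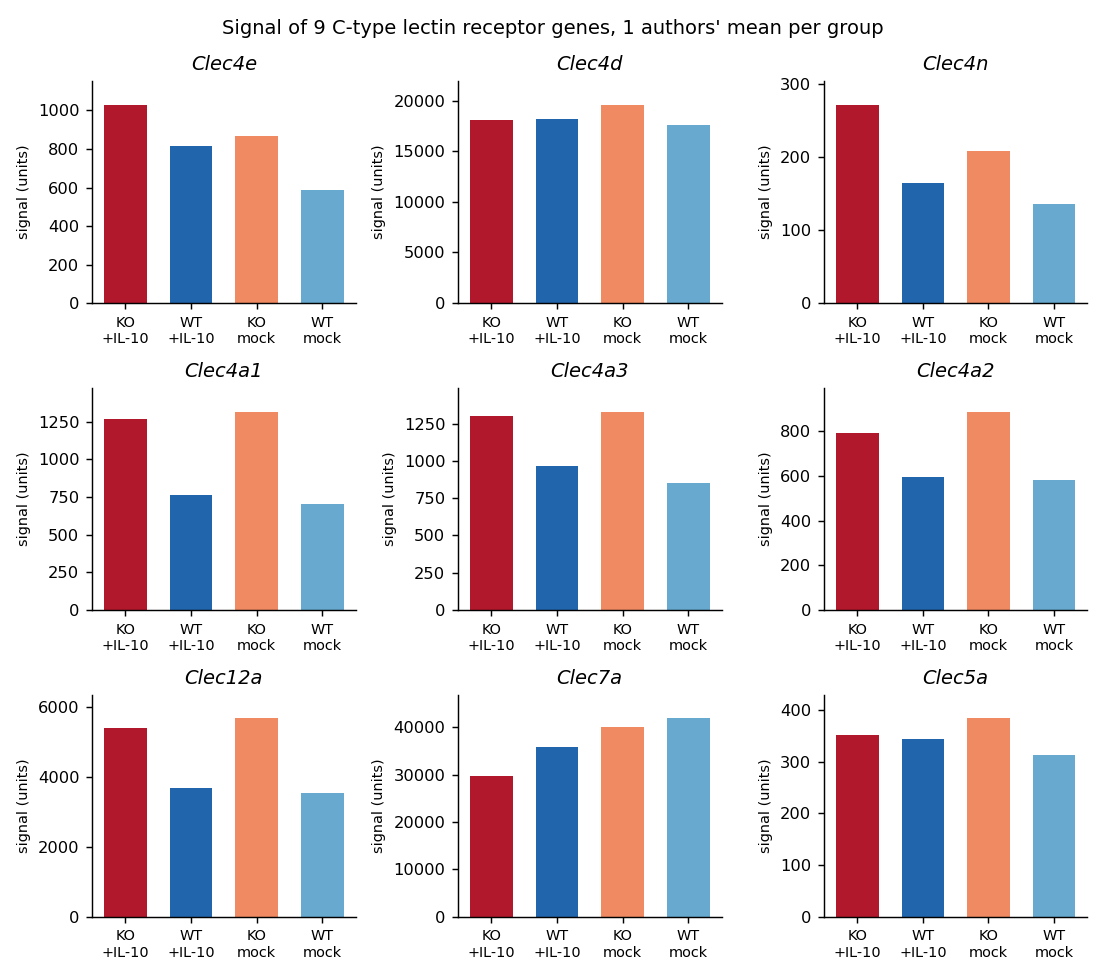
Bars give the signal (units, axis from 0) of each receptor gene in knockout cells with IL-10, wild-type cells with IL-10, mock-treated knockout cells and mock-treated wild-type cells. Each bar is 1 signal per group, taken as an authors' mean, with no error. Clec4a1, Clec4a3, Clec4a2, Clec12a, Clec4e and Clec4n stand higher in both knockout columns than in the wild-type column of the same treatment, and Clec7a stands lower.

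Between the genotypes, most of these receptor genes were listed higher in mock-treated Ptpn1-/- cells than in mock-treated wild-type cells. The ratio was above 0 for 8 of the 9, against 53.5% of all genes, with a median log2 ratio of 0.55 where that of all genes was 0.02. None reached 2-fold in either direction, a size that 0.325% of genes reached upward and 0.105% downward. At 1.5-fold 4 were higher, Clec4a1, Clec12a, Clec4a3 and Clec4a2, and none lower, against 1.43% of genes higher and 1.4% lower. Clec4a2, at 0.59, lay just past that limit, and Clec4e, at 0.55, just short of it. With a pseudocount of 4 ppm, or after subtracting the dependence on transcript length given further on, 2 remained, Clec4a1 and Clec12a. Of the 9 genes 6 lay above the 95th percentile of all genes (a log2 ratio of 0.37), which by its construction 5% of genes exceed. As the 9 were chosen with earlier results of these data known, their counts beside these shares are a description and no test. In bulk RNA, more cells of a type and more RNA per cell cannot be told apart.

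Of the 9 genes, Clec4a1 had the widest genotype ratio under both treatments. Clec4a1, whose protein lacks the inhibitory tail motif of Clec4a2, was listed at 1268 units in knockout cells with IL-10, 760.0 in wild-type cells with IL-10, 1316.5 in mock-treated knockout cells and 703.0 in mock-treated wild-type cells. Both knockout values lie above both wild-type values, with log2 ratios of 0.72 with IL-10 and 0.88 under mock. Clec4a3, another relative of DCIR, was listed at 1299 units in knockout cells with IL-10, 969 in wild-type cells with IL-10, 1331 in mock-treated knockout cells and 855 in mock-treated wild-type cells. Its ratios were 0.41 with IL-10 and 0.62 under mock, again with both knockout values above both wild-type values. The inhibitory receptor gene Clec4a2 was listed at 793 units in knockout cells with IL-10, 596 in wild-type cells with IL-10, 887 in mock-treated knockout cells and 580.0 in mock-treated wild-type cells. Its ratios were 0.40 with IL-10 and 0.59 under mock. Reads of Clec4a2 can be shared with other genes, so its value is uncertain. Of the 35-base words of its transcript 11.2% occur in transcripts of other genes. These words are spread over 431 genes, of which the related Clec4a4, which had no row, holds the most. That share was 2.18% for Clec4n, 1.11% for Clec4a3, 0.134% for Clec7a and 0% for the other 5 genes.

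Clec12a, the other inhibitory receptor gene, had the same order of groups as Clec4a1, Clec4a3 and Clec4a2. It was listed at 5411 units in knockout cells with IL-10, 3695 in wild-type cells with IL-10, 5678 in mock-treated knockout cells and 3531 in mock-treated wild-type cells. With log2 ratios of 0.55 with IL-10 and 0.68 under mock, it was the highest-signal gene among those past 1.5-fold under mock. Within the group of 9, Clec12a, Clec4a3 and Clec4a2 lay close together in pattern. Their log2 signals, each centred on its own mean over the 4 columns, lay 0.13 to 0.14 apart in Euclidean distance, and Clec4a1 lay 0.19 from Clec12a. The closest pair of the 9 was Clec4d and Clec5a, 0.097 apart.

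Of the receptors that pair with FcRγ, Clec4e and Clec4n were listed higher in the knockout and Clec4d had ratios close to 0. Clec4e was listed at 1029 units in knockout cells with IL-10, 816.0 in wild-type cells with IL-10, 869.5 in mock-treated knockout cells and 587.0 in mock-treated wild-type cells. The mock-treated wild-type value is the lowest and the knockout value with IL-10 the highest, with genotype ratios of 0.33 with IL-10 and 0.55 under mock. Clec4n, the lowest of the 9 in signal, was listed at 272.0 units in knockout cells with IL-10, 164.5 in wild-type cells with IL-10, 209.0 in mock-treated knockout cells and 136.5 in mock-treated wild-type cells. It has the same order of groups as Clec4e, and its genotype ratio of 0.64 with IL-10 was above that of 0.53 under mock, which held for no other of the 9 genes. Clec4d was listed at 18105 units in knockout cells with IL-10, 18194.5 in wild-type cells with IL-10, 19580.5 in mock-treated knockout cells and 17615.5 in mock-treated wild-type cells. Those values span 1.11-fold from lowest to highest, with ratios of -0.01 with IL-10 and 0.15 under mock.

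Clec7a was the 1 gene of the 9 listed lower in the knockout under both treatments. Clec7a, the receptor for beta-glucan, was listed at 29786 units in knockout cells with IL-10, 35729 in wild-type cells with IL-10, 40122 in mock-treated knockout cells and 41861 in mock-treated wild-type cells. Under each treatment the knockout value is the lower one, with ratios of -0.26 with IL-10 and -0.06 under mock. Its ranks among 11996 genes were 81, 70, 59 and 55 in the same order of groups. Clec5a was listed at 352 units in knockout cells with IL-10, 344 in wild-type cells with IL-10, 383.5 in mock-treated knockout cells and 313.0 in mock-treated wild-type cells. Its ratios were 0.03 with IL-10 and 0.27 under mock.

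With IL-10 present the genotypes differed in the same direction for 8 of the 9 genes, and less widely for most. The ratio was above 0 for 7 of 9, against 51.8% of all genes, with a median of 0.40 where that of all genes was 0.01. None reached 2-fold, which 0.596% of genes did upward and 0.0789% downward. Clec4a1 and Clec4n were the 2 genes at least 1.5-fold higher, against 1.8% of genes, and none was 1.5-fold lower, against 0.991%. With the larger pseudocount or the length trend subtracted, Clec4a1 alone passed 1.5-fold. Above the 95th percentile (0.34), where 5% of genes lie, stood 5 of the 9. The genotype comparisons under IL-10 and under mock rest on separate columns of a table that the authors normalized as a whole, and the labels do not say whether the cells of both treatments came from the same mice.

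**Figure D2:**
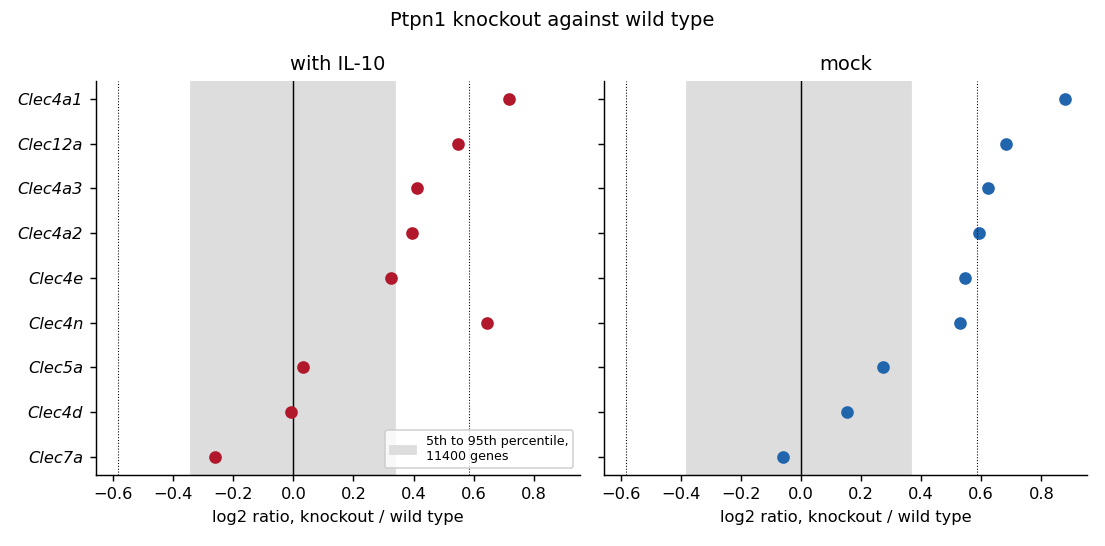
Each point is the log2 ratio of signal, knockout over wild type, of 1 receptor gene with IL-10 (left) and under mock (right); the grey band holds the 5th to 95th percentile of 11400 genes and dotted lines mark 1.5-fold. Under mock, 6 genes lie right of the band, and with IL-10 5 do, with Clec4a1 farthest right in both.

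The genotype ratios also moved with transcript length over the whole table. Across 11222 genes, which are not independent replicates, the mock ratio had a Spearman's rho of -0.56 with transcript length, and the ratio with IL-10 one of -0.42, so that shorter transcripts tended to be listed higher in the knockout. The receptor transcripts run from 1229 bases (Clec4n) to 3747 bases (Clec5a), and the running median of the mock ratio at their lengths was 0.18 for Clec4n and Clec4a3, 0.17 for Clec4d, 0.15 for Clec4a1, 0.08 for Clec7a, 0.07 for Clec4a2, Clec12a and Clec4e, and -0.03 for Clec5a. With that trend subtracted, the median of the 9 genes was 0.31 with IL-10 and 0.44 under mock. Clec4a1 then had ratios of 0.63 with IL-10 and 0.73 under mock, and Clec12a 0.51 and 0.61. Clec4a3 (0.44) and Clec4a2 (0.52) under mock, and Clec4n (0.53) with IL-10, then fell short of 1.5-fold, a log2 ratio of 0.585, which leaves 1 of the 9 past it with IL-10 and 2 under mock. Clec4d turned to -0.02 under mock. The Clec4n row spans 973 bases, so the transcript length used for its trend may not be that of what was counted.

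**Figure D3:**
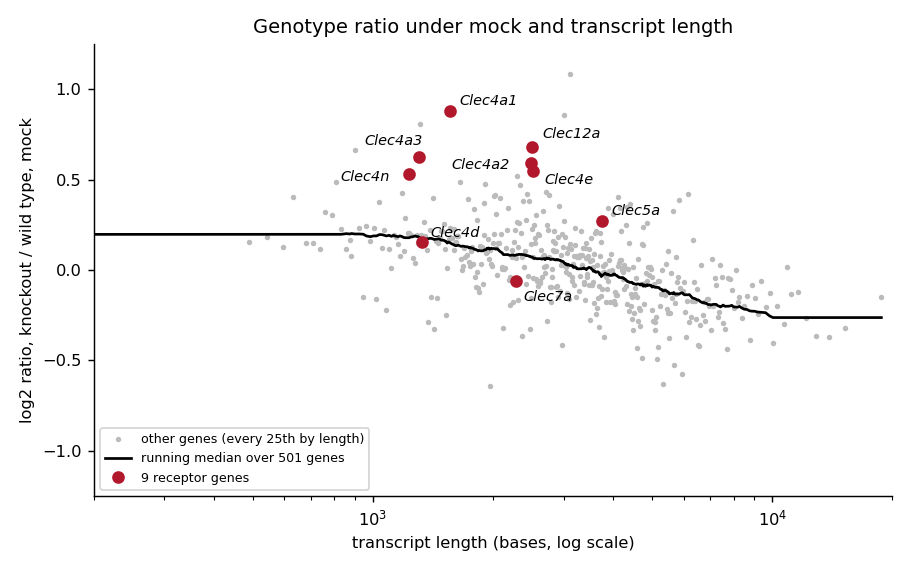
The mock log2 ratio of signal, knockout over wild type, is drawn against the length of the longest protein-coding transcript (bases, log scale) for the receptor genes (red) and every 25th other gene by length (grey), with the running median over 501 genes as a line. All receptor genes but Clec4d and Clec7a lie above the line at their length, and Clec4d and Clec7a lie below it.

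No receptor gene differed by 1.5-fold between IL-10 and mock, and the widest ratios lay on opposite sides of 0. In wild-type cells Clec4e had the highest ratio of IL-10 to mock, 0.46, at 816.0 units with IL-10 and 587.0 under mock, and Clec7a the lowest, -0.23, at 35729 and 41861. In knockout cells Clec4n had the highest, 0.34, at 272.0 units with IL-10 and 209.0 under mock, Clec4e had 0.24, and Clec7a the lowest, -0.43, at 29786 and 40122. In each genotype, Clec4e and Clec4n thus stood higher with IL-10 than under mock, and Clec7a lower. The ratio was above 0 for 2 of the 9 genes in knockout cells and for 8 in wild-type cells, against 45.2% and 49.6% of all genes. The median was -0.07 in knockout cells and 0.11 in wild-type cells, where those of all genes were -0.01 and 0.00. Over 11222 genes these ratios had a Spearman's rho with transcript length of -0.13 in knockout cells and -0.37 in wild-type cells. With that trend subtracted, the medians of the 9 were -0.07 and 0.03. In wild-type cells Clec4d (-0.03) and Clec4a2 (-0.003) then lay below 0. No receptor gene reached 2-fold. In knockout cells 0.877% of genes were 2-fold higher and 0.0175% lower, and in wild-type cells 0.465% were higher and 0.0175% lower. At 1.5-fold the count was also 0, against 2.32% higher and 0.807% lower in the knockout and 1.54% and 0.412% in wild type. Below the 5th percentile of all genes lay only Clec7a in the knockout, and above the 95th only Clec4e in wild type, each a limit that 5% of genes pass.

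**Figure D4:**
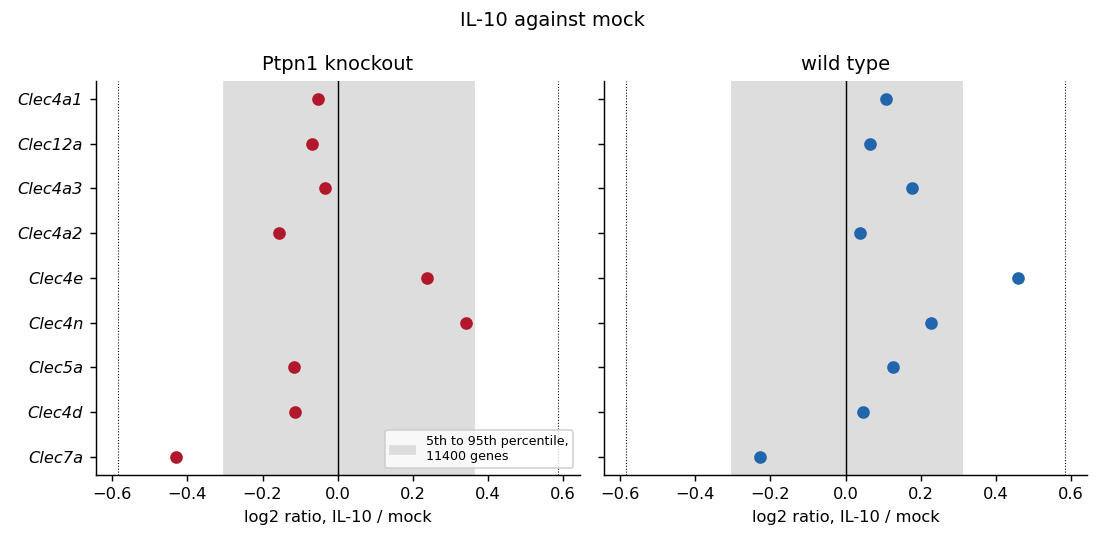
Points give the log2 ratio of signal, IL-10 over mock, of each receptor gene in knockout cells (left) and wild-type cells (right), with the 5th to 95th percentile of 11400 genes in grey and 1.5-fold as dotted lines. Clec7a lies left of 0 in both panels and outside the band in the knockout, and Clec4e and Clec4n lie right of 0 in both.

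The response to IL-10 had the lower log2 ratio in the knockout for 8 of the 9 genes, against 51.2% of all genes, with a median difference between the genotypes' ratios of -0.19 where that of all genes was 0.00. The differences were narrow, from -0.24 (Clec5a) to -0.13 (Clec12a) for those 8 and 0.11 for Clec4n. Over 11222 genes the difference had a Spearman's rho of 0.26 with transcript length. With that trend subtracted, the median of the 9 receptor genes was -0.13. None reached 2-fold, which 0.0965% of genes did upward and 0.0351% downward, or 1.5-fold, which 0.5% and 0.263% did. This difference is built from the same 4 columns as the comparisons above, so a high value in the mock-treated knockout column raises the mock genotype ratio and lowers this difference at once. For the 4 genes at least 1.5-fold higher in that column (Clec4a1, Clec12a, Clec4a3 and Clec4a2) the IL-10 ratios ran from -0.16 to -0.03 in the knockout and from 0.04 to 0.18 in wild type.

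The signalling partners of these receptors had median genotype ratios closer to 0 than those of the receptor genes. Of 7 adaptor and kinase genes none was 2-fold or 1.5-fold different between the genotypes, with medians of 0.08 with IL-10 and 0.06 under mock. Fcer1g, the FcRγ adaptor, was listed at 29519 units in knockout cells under both treatments, at 28324.5 in wild-type cells with IL-10 and at 26305.5 in mock-treated wild-type cells. Tyrobp, the DAP12 adaptor, was listed at 27325.5 units in knockout cells with IL-10, 26734.5 in wild-type cells with IL-10, 30079 in mock-treated knockout cells and 31699 in mock-treated wild-type cells. Syk had genotype ratios of 0.02 with IL-10 and -0.12 under mock, the DAP10 adaptor gene Hcst 0.23 and 0.31, and the Src family kinase genes Lyn 0.12 and -0.09 and Src 0.08 and 0.06. Fgr, also a Src family kinase, had genotype ratios of 0.32 with IL-10 and 0.24 under mock, and wider ratios between treatments. It was listed at 4095 units in knockout cells with IL-10 and 1941 under mock, a ratio of 1.07, and at 3285 and 1644 in wild-type cells, a ratio of 0.99.

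Of the 15 genes further down the pathway none was 1.5-fold different between the genotypes under either treatment, and none was 2-fold different in any comparison. The 3 widest were responses to IL-10. Vav1, an exchange factor downstream of SYK, had ratios of IL-10 to mock of 0.93 in knockout cells and 0.73 in wild-type cells. Malt1, the protease of the CARD9 complex, was listed at 1505 units in knockout cells with IL-10 and 2382 under mock, and at 1571.5 and 2570 in wild-type cells, ratios of -0.65 and -0.70. Prkcd, a kinase between SYK and CARD9, had ratios of -0.36 in knockout cells and -0.30 in wild-type cells. Of the phosphatases that inhibitory receptors recruit, Ptpn6 had genotype ratios of 0.23 with IL-10 and 0.18 under mock, Ptpn11 -0.18 and -0.23, and the lipid phosphatase gene Inpp5d 0.06 and 0.02. Ptpn1, the targeted gene, was listed at 5391.5 units in knockout cells with IL-10 and 6736 in wild-type cells with IL-10. In mock-treated cells it was listed at 3836.5 units in the knockout and 4960.5 in wild type. Its genotype ratios of -0.32 with IL-10 and -0.37 under mock did not pass the 5th percentiles of all genes, -0.34 and -0.38. Signal was thus still listed in the knockout, and the deleted part of the gene is not stated in the labels, so this is a weak check of the labels.

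Other C-type lectin genes were spread on both sides of 0. Of 36 names 20 had a row and 16 passed the filter, with median genotype ratios of -0.05 with IL-10 and 0.02 under mock, and none was 2-fold different between the genotypes. At 1.5-fold 2 were higher and 1 lower under mock, against 1.43% and 1.4% of all genes. With IL-10 1 was higher, against 1.8%, and none lower, against 0.991%. Cd209a, a lectin of dendritic cells, was the 1 gene past 2-fold in any comparison, at 72 units in knockout cells with IL-10 and 14.5 under mock, and at 61.5 and 6 in wild-type cells, all low signals. The following were picked by their values. Mgl2 had genotype ratios of 0.55 with IL-10 and 0.66 under mock, at low signals of 23.5 to 53.5 units. Clec10a, a lectin that binds galactose-type sugars, was listed at 512.5 units in knockout cells with IL-10, 280.0 in wild-type cells with IL-10, 346 in mock-treated knockout cells and 209 in mock-treated wild-type cells, ratios of 0.81 and 0.66 between the genotypes. Ly75, an endocytic receptor, lay the other way at 586 units in knockout cells with IL-10, 834 in wild-type cells with IL-10, 661 in mock-treated knockout cells and 1064.5 in mock-treated wild-type cells. Clec2d, a ligand of an inhibitory receptor of natural killer cells, followed IL-10, with ratios of IL-10 to mock of 0.51 in knockout cells and 0.77 in wild-type cells. Between the receptor genes on chromosome 6 lie Clec4b1, below the filter at 24.5, 15, 26.5 and 12 units in the same order of groups, and Clec1b, whose genotype ratios were -0.31 with IL-10 and -0.28 under mock. Clec1a, also between them, lay below the filter at 11, 16, 30.5 and 20.5 units in the same order, and its row overlaps that of Clec1b, so the values of both are uncertain.

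By pattern over the 4 columns, the genes nearest to the 5 receptors that differed by 1.5-fold somewhere were sought among 9430 genes of at least 5 ppm. Clec4a1 lay nearest to the chemokine gene Cxcl13 (distance 0.039), then Ass1 (0.097) and Lst1 (0.099). Cxcl13 was listed at 1749 units in knockout cells with IL-10, 1046.5 in wild-type cells with IL-10, 1765 in mock-treated knockout cells and 944 in mock-treated wild-type cells. For Clec12a the nearest were Serpinb9b (0.018), the class II gene H2-Aa (0.048) and Tpsb2 (0.077). Clec4a2 lay nearest to Tnni2 (0.012), Ms4a14 (0.057) and L1cam (0.057), Clec4a3 to H2-M3 (0.054), H2-T10 (0.064) and Gdf3 (0.075), and Clec4n to Insl6 (0.071), Sirpb1b (0.077) and C130026I21Rik (0.078). With 4 values a gene, such closeness is a description of these columns.

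Markers of several cell types moved with the genotype as well, and their part in the ratios of the receptor genes was not tested. Of the 6 monocyte markers 5 were above 0 in the knockout under both treatments and at least 1.5-fold higher, with medians of 0.87 with IL-10 and 0.74 under mock. Ly6c2, which had the widest ratios of the list, was listed at 105.5 units in knockout cells with IL-10, 13.5 in wild-type cells with IL-10, 100 in mock-treated knockout cells and 15 in mock-treated wild-type cells. Both wild-type values are low and lie below the pseudocount of 26.7 units. Fn1 lay the other way, with ratios of -0.36 with IL-10 and -0.25 under mock. The summed signal of the 6 was 58561.5, 73134, 62340 and 72682 units in the same order of groups, most of it Fn1, and without Fn1 it was 2892, 1443, 2249.5 and 991. Macrophage markers had medians of -0.08 with IL-10 and -0.16 under mock over 8 kept genes. Lyz2, the lysozyme gene, was the 1 of these past 2-fold, under mock, with ratios of -0.995 with IL-10 and -1.41 under mock. It was listed at 136852 units in knockout cells under both treatments, 272813 in wild-type cells with IL-10 and 362618 in mock-treated wild-type cells. The last value is the highest listed for any gene and is shared by 8 genes in that column, so the mock ratio is uncertain. The ratio with IL-10 is uncertain too, as ranks lie far apart in signal at such high values. The following 3 were picked by their values. Fcgr1, a receptor for IgG, had ratios of 0.61 with IL-10 and 0.79 under mock, and the integrin gene Itgam -0.21 and -0.38. Emr1, which encodes F4/80, was listed at 10088.5 units in knockout cells with IL-10 and 10969 in wild-type cells with IL-10. In mock-treated cells it was listed at 11367 units in the knockout and 10888.5 in wild type. This marker of the labelled cell type was thus listed in all groups, while Lyz2, Fcgr1 and Itgam differed more widely between the genotypes.

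Of the neutrophil markers, 7 of 13 had a row and 5 were kept, with medians of 0.12 with IL-10 and 0.06 under mock, a summed signal of 3709 to 4312 units over the groups, and no row for Ly6g, Mpo, Elane, Camp, Ngp or Ltf. Retnlg, the 1 of these past 2-fold, was listed at 121.5 units in knockout cells with IL-10, 26.5 in wild-type cells with IL-10, 109.5 in mock-treated knockout cells and 29.5 in mock-treated wild-type cells, ratios of 1.48 and 1.28. Dendritic cell markers were kept in 4 of 8 cases, with medians of 0.07 and 0.04 and a summed signal, mostly Itgax, of 7664.5 units in knockout cells with IL-10, 11324 in wild-type cells with IL-10, 8429 in mock-treated knockout cells and 12059.5 in mock-treated wild-type cells. Flt3, Xcr1, Clec9a and Siglech had no row. Mesothelial and fibroblast markers were lower in the knockout in 7 of 8 with IL-10, where Msln was equal at 31 units, and in 8 of 8 under mock, with medians of -0.62 and -0.63. Mast cell markers were higher in 4 of 4 kept, with medians of 0.54 and 0.41 at low signal. Resident macrophage markers had medians of 0.00 and -0.08 over 6, with 3 above 0 and 3 below under each treatment. Of these 6, Cxcl13 was at least 1.5-fold higher, with ratios of 0.73 with IL-10 and 0.88 under mock. Gata6 was at least 1.5-fold lower (-0.66 and -0.74), as was Prg4 under mock alone (-0.52 and -0.82). Eosinophils had 1 kept marker and B cells 2, and none of 7 T and NK cell markers had a row. No listed marker was at 0 in any group.

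**Figure D5:**
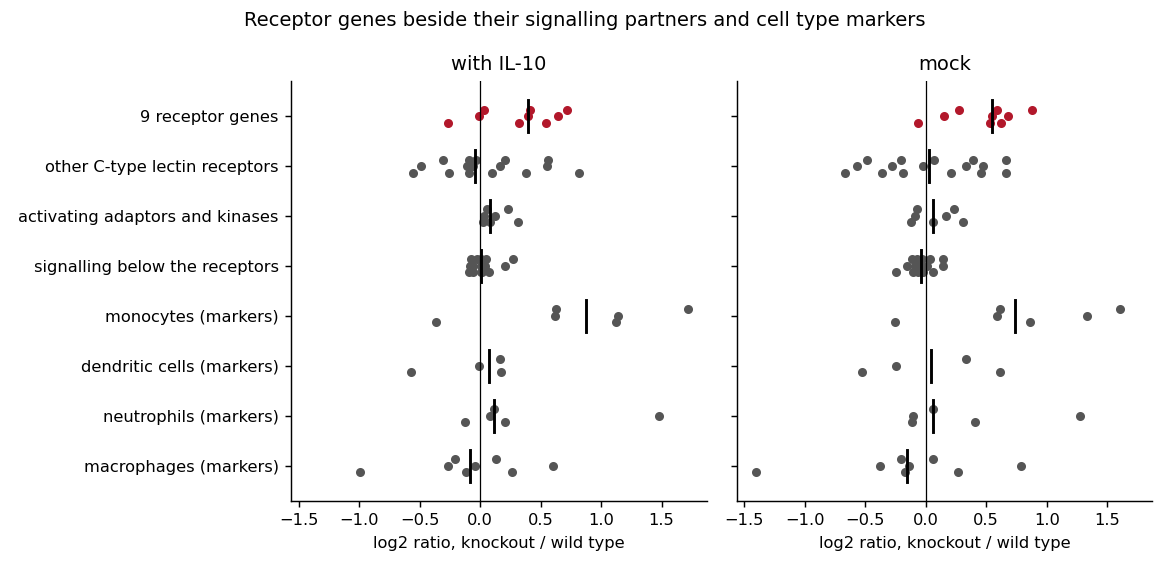
Each point is 1 kept gene, with its log2 ratio of signal, knockout over wild type, with IL-10 (left) and under mock (right); black ticks are the medians of each list. The receptor genes (red) and the monocyte markers lie mostly right of 0, and the adaptors, kinases and downstream genes lie close to 0.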

How the data were processed

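RNA of 8 samples in 4 groups of 2 was sequenced. Per the submitters' processing notes RSEM, Bowtie and mm9 were used; no source used here gives their versions or roles, the gene annotation or the normalization. The authors deposited 1 normalized expression signal per gene and group for 11996 genes. The table is named for CPM, but each column sums to 26705598 and shares its highest value, 362618, and all values are multiples of 0.5, so the unit is called a signal here. The planned limma fits need values per sample and were not run, so no p-value, SD or n is attached. Depth per library is unknown.

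Log2 ratios were taken with Python 3.11.15 and pandas 2.3.3 after adding 1 ppm of the column total (26.7 units) to both signals, over the 11400 genes with a mean of at least 1 ppm. A difference was called at 2-fold, and 1.5-fold was the alternative. Other alternatives were pseudocounts of 0.25 and 4 ppm, no filter or one at 5 ppm, centring on the median gene, summing rows of 1 name, and subtracting a running median over transcript length (501 genes; the longest protein-coding transcript in GENCODE M21 on GRCm38, found for 11222 of the 11400 genes). The ratio and trend steps were tested on simulated data. All receptor genes are named; of the other pathway lists, adaptors, kinases, phosphatases and response checks are named in full, and otherwise genes past 2-fold or the 3 largest ratios, with any further name said to be picked by its values. Cell type marker lists are given by counts, medians and sums, and single markers named from them were chosen after their values were seen. 1 item of these lists is not reported here. The receptor genes and lists were chosen with earlier results of these data known.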

Additional observations from a re-analysis of the deposited data

How the results depend on the processing

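No receptor gene reached 2-fold in any of the 5 comparisons, and this count stayed at 0 with pseudocounts of 0.25 and 4 ppm, with no filter or one at 5 ppm, with the median gene or the length trend subtracted, and with rows of 1 name summed. With the limit at 1.5-fold it became 4 higher in the knockout under mock and 2 higher with IL-10, and stayed at 0 otherwise. These 1.5-fold counts were then also taken under each other alternative, a choice made after seeing the data. With a pseudocount of 4 ppm they became 2 under mock (Clec4a3 at 0.580 and Clec4a2 at 0.53 no longer passed) and 1 with IL-10 (Clec4n at 0.48), and with the length trend subtracted likewise 2 and 1. Under mock the count was 5 with a pseudocount of 0.25 ppm and 3 with the median gene subtracted, and it kept its value otherwise, as did the count with IL-10. The median of the 9 genotype ratios under mock moved to 0.44 when the length trend was subtracted, and the other medians moved by less than 0.1 in log2. Of the 45 ratios of single receptor genes, 7 moved by 0.1 or more with the length trend and 2 with a pseudocount of 4 ppm, both of them of Clec4n. Small ratios changed sign with the length trend for Clec4d under mock (-0.02) and, in the wild-type IL-10 response, for Clec4d (-0.03) and Clec4a2 (-0.003). No paired analysis was possible because the table has 1 value per group and no column carries a replicate number; leaving out each replicate was not run for the same reason. Depth is unknown, so no counting error is given.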

Other observations

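Of 11 transcription factor genes linked to these receptors 10 had a row, and none was 2-fold different between the genotypes. Stat3, through which IL-10 acts, was listed at 8460 units in knockout cells with IL-10 and 3678 under mock, and at 8651 and 4330 in wild-type cells, ratios of 1.20 and 0.99. The genotype ratios of the list had medians of 0.14 with IL-10 and 0.05 under mock. As checks of the treatment, Socs3 had ratios of IL-10 to mock of 3.46 in knockout cells and 3.28 in wild-type cells, and Bcl3 1.63 and 1.15. Of 3 interferon-inducible genes on the same list, Irf7 had genotype ratios of 1.77 with IL-10 and 1.72 under mock, and Ifit3 2.04 and 1.89. The wild-type signals of Ifit3 were low, at 32.5 units with IL-10 and 23.5 under mock. Gbp5 was listed at 237 units in knockout cells with IL-10, 63 in wild-type cells with IL-10, 26 in mock-treated knockout cells and 20.5 in mock-treated wild-type cells, ratios of 1.56 with IL-10 and 0.16 under mock at low signal.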
